A study of Arabidopsis thaliana with 6 samples.

Results

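The 10 genes described here encode enzymes and regulators of flavonoid and anthocyanin synthesis in Arabidopsis thaliana. They were chosen with earlier results of these data known and were taken by gene identifier. All 10 were found among the 24340 genes of the deposited expression table. Expression was measured by RNA sequencing of shoot apices that had received 1 mM SNP (sodium nitroprusside, a nitric oxide donor that contains iron and cyanide) or mock solution for 24 h, with 3 biological replicates of each. Both solutions contained 0.025% Silwet, a wetting agent. All plants were of the Col-0 background and carried the same ap1 and cal mutations, which turn the shoot tip into a mass of arrested inflorescence and young floral meristems, and the inflorescences were 6 weeks old. The groups therefore differ in SNP and share the mutant background, and no wild-type apices were analysed here.

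Flavonoids are made from phenylalanine by way of the phenylpropanoid pathway. Chalcone synthase and the enzymes that act next form dihydroflavonols, a branch point from which flavonol synthase makes flavonols and dihydroflavonol reductase opens the route to anthocyanins, the red and purple pigments. In Arabidopsis the early steps and the flavonol branch are activated by the R2R3-MYB factors MYB11, MYB12 and MYB111, and the late anthocyanin steps by complexes of a MYB factor such as PAP1, a bHLH factor such as TT8 and the WD-repeat protein TTG1. The products absorb ultraviolet light, act as antioxidants and, in the case of flavonols, influence auxin transport.

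SNP-treated apices had lower levels of these genes than mock-treated apices. In all 10 genes the 3 SNP values lay below the 3 mock values, and 9 of the 10 passed the test at an adjusted p under 0.05 (limma on log2(TPM + 0.5), Benjamini-Hochberg adjustment over all 18966 tested genes), all of them lower. Among all tested genes 13.0% were called lower at this limit and 29.6% in either direction, while 22.0% had all SNP values below all mock values and 51.2% had groups without overlap in either direction. The median log2 fold change of the 10 genes was -1.54, and that of all tested genes 0.06. By the limits in the study's methods, 1.5-fold and an unadjusted p under 0.01, 8 of the 10 were lower, against 6.40% of all tested genes lower and 16.9% past these limits in either direction. These limits were applied to the limma fit, not to the study's own test. TPM, transcript abundance scaled to the same total in each sample, is a level per gene length, so the genes can be compared with each other. The summed level of the 10 genes was 177, 215 and 148 TPM in the SNP samples, against 569, 496 and 585 TPM in the mock samples. CHS made up from 41.1% to 48.0% of this sum in the SNP samples and from 42.0% to 47.1% in the mock samples. In tissue samples like these, fewer cells that express a gene and less RNA per cell cannot be told apart.

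**Figure D1:**
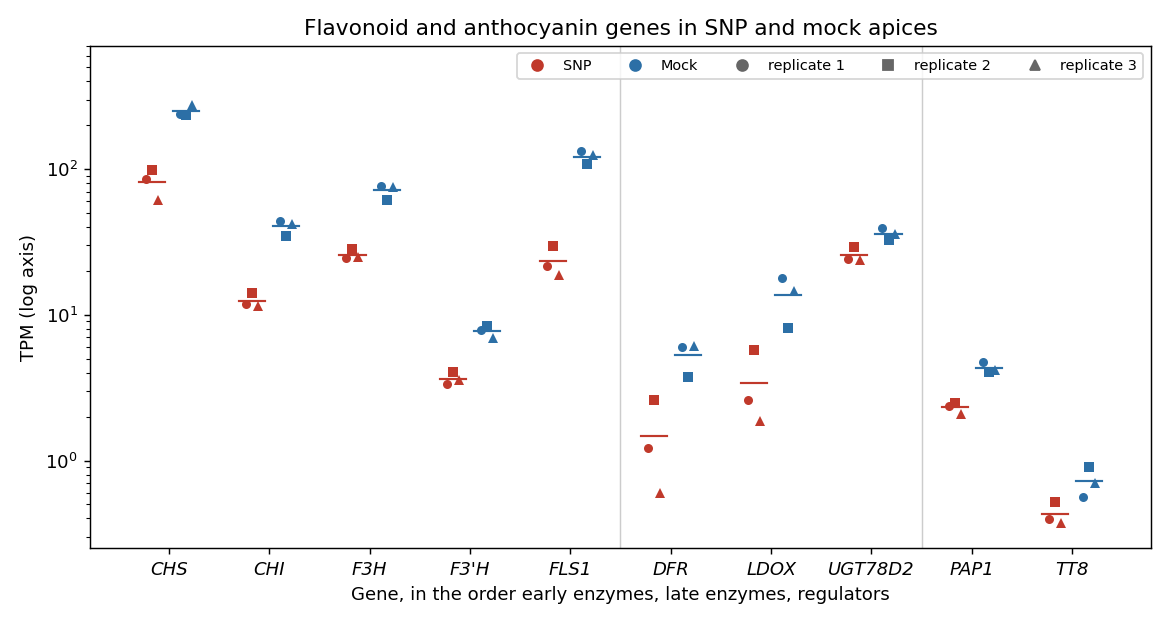
TPM of the 10 genes on a log axis, with 1 point per sample (SNP in red, left, and mock in blue, right; the symbol shape gives the replicate) and a line at each group mean. The SNP points lie below the mock points for every gene, far apart for FLS1 (18.7 to 29.5 TPM in SNP, against 108 to 132 TPM in mock samples) and close together for UGT78D2 and TT8.

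The 6 samples held between 51879530 and 99089586 reads or read pairs on genes, as read from the steps of the TPM values. The shoot meristem markers STM, WUS, CLV3, CLV1, KNAT1, LFY, UFO and ANT were all detected in both groups, with a summed level of 463 to 511 TPM in SNP and 531 to 603 TPM in mock samples. Of these 8, ANT was called lower (-0.52, limma adjusted p = 0.011) and UFO higher (0.68, limma adjusted p = 0.0149). For each marker list here, the share over all tested genes was 13.0% called lower and 16.6% called higher. The leaf mesophyll markers RBCS1A, LHCB1.3 and CA1 summed to between 4396 and 5102 TPM in SNP and between 4149.6 and 4744 TPM in mock samples. The vascular markers SUC2, APL, IRX3 and XCP1 summed to between 75.5 and 84.1 TPM in SNP and between 30.9 and 47.0 TPM in mock samples, and 2 of the 4 (SUC2 and XCP1) were called higher. None of these 3 lists had a marker at 0 in a sample. The epidermis markers ATML1, PDF1 and FDH summed to between 1140.4 and 1345 TPM in SNP and between 1165 and 1741 TPM in mock samples, with none called. The anther tapetum markers were AMS, PKSA, PKSB and DYT1. They summed to between 31.1 and 41.4 TPM in SNP and between 22.3 and 31.2 TPM in mock samples. PKSA made up most of this sum, with means of 35.1 TPM in SNP and 24.6 TPM in mock samples. DYT1 was below the filter, and of the 3 tested genes PKSA was called higher (0.50). AMS and PKSB had log2 fold changes of -0.07 and -0.0014 and did not pass the test. AMS stood apart in SNP replicate 3 and mock replicate 2, at 204 and 228 reads, against 9 to 25 reads in the other samples, and PKSB and DYT1 were also highest in these 2 samples. Without SNP replicate 3, 8 of the 10 genes were called lower, and without mock replicate 2 there were 9. The part of these cell types in the results was not tested.

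Promoters are shown for 3 genes picked for a G-box before the start and for the 2 genes that fell most. In windows of 250 bases before to 50 bases after the annotated start (RefSeq genome and annotation, TAIR10.1), the G-box CACGTG, a site that bHLH and bZIP factors can recognise, was found in 4 of the 10 genes (CHS, CHI, F3H and DFR) and in 7.68% of 27443 promoters of protein-coding genes. Its first base lay at position -233 from the start in CHS, at -249 in F3H, at -14 and again at 10 in DFR, and at 40 in CHI. The sequences are printed 5′ to 3′ on the gene's strand, each 120 bases long and before the start, with the G-box in capitals. FLS1 and LDOX, which had the largest falls, had no G-box in this window and are shown by the bases next to the start.
CHS, chr5:4488226-4488345, plus strand: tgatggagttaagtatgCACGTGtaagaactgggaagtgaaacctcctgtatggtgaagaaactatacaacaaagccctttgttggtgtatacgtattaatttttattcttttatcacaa
F3H, chr3:19024942-19025061, plus strand: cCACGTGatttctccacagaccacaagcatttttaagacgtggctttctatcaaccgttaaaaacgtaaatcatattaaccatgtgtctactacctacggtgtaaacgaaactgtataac
DFR, chr5:17166033-17166152, minus strand: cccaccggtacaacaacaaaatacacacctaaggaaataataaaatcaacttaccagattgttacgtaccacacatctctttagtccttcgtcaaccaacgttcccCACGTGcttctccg
FLS1, chr5:2803713-2803832, plus strand: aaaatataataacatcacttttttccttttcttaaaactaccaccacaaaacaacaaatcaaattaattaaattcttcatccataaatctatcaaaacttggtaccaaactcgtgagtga
LDOX, chr4:12006210-12006329, minus strand: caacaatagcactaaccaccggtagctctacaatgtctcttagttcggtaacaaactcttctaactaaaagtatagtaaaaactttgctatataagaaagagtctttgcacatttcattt

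On both strands of the same windows, the E-box CANNTG, of which the G-box is 1 form, was found in 6 of the 10 genes and in 61.7% of all promoters. The MYB core ANCNNCC was found in 8 of the 10 and in 57.5%. The MYB-type elements ACCTAAC and ACCTACC were found in 0 of the 10, against 2.88% and 1.38% of all promoters. The element TGACG, recognised by TGA-type bZIP factors, was found in 3 of the 10 (FLS1, DFR and PAP1) and in 23.1% of all promoters. These matches describe the letters in the windows only.

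CHS (AT5G13930, chr5:4488476-4490264 of TAIR10.1) encodes chalcone synthase, the first committed enzyme of the pathway, and had the highest level of the 10 genes in both groups. It was measured at 84.9, 98.7 and 60.9 TPM in the SNP samples, against 239, 234 and 275 TPM in the mock samples. The lowest mock value was thus well above the highest SNP value. CHS fell to 81.5 ± 19.1 TPM in SNP-treated apices, against 249 ± 22.7 TPM in mock-treated apices (SD, n = 3 each), with a log2 fold change of -1.63 ± 0.18 (SE, limma adjusted p = 0.00112). Between 3864 and 27477 reads lay behind each value.

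CHI (AT3G55120, chr3:20430059-20431597) encodes chalcone isomerase, which closes the flavanone ring. Its level was 11.8, 14.0 and 11.4 TPM in the SNP samples, against 44.3, 34.9 and 42.1 TPM in the mock samples. The log2 fold change of -1.66 ± 0.13 (SE, limma adjusted p = 0.000292) was close to that of CHS. F3H (AT3G51240, chr3:19025192-19026872) encodes flavanone 3-hydroxylase, which makes the dihydroflavonol at the branch point. It was measured at 24.5, 28.3 and 24.9 TPM in the SNP samples, against 76.7, 61.7 and 75.8 TPM in the mock samples. The log2 fold change was -1.44 ± 0.12 (SE, limma adjusted p = 0.000337). The deposited table lists the symbol F3'H beside AT3G51240, so the gene was taken by its identifier. An antisense gene, AT3G51238, overlaps F3H in the annotation, and the strand setting of the authors' counting is not given in the sources used here.

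F3'H (AT5G07990, chr5:2560328-2563137) encodes flavonoid 3'-hydroxylase, the cytochrome P450 that turns the kaempferol series into the quercetin series. Its level was 3.33, 4.03 and 3.58 TPM in the SNP samples, against 7.81, 8.43 and 6.93 TPM in the mock samples. The fall was the smallest of the 5 early enzymes, at a log2 fold change of -0.99 ± 0.13 (SE, limma adjusted p = 0.00222). Its 95% interval, from -1.29 to -0.68, did not overlap that of CHI, from -1.97 to -1.36. Here and below, the intervals come from the same 6 samples, and their overlap is no test of a difference between genes.

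FLS1 (AT5G08640, chr5:2803833-2805606) encodes the main flavonol synthase of Arabidopsis and changed most among the 10 genes. It was measured at 21.7, 29.5 and 18.7 TPM in the SNP samples, against 132, 108 and 124 TPM in the mock samples. The mean of 23.3 ± 5.56 TPM in SNP-treated apices was 19.2% of the mean of 121 ± 12.3 TPM in mock-treated apices (SD, n = 3 each). The log2 fold change was -2.38 ± 0.17 (SE, limma adjusted p = 0.000224), and counted from the largest decrease this was number 7 of the 18966 tested genes. The 95% interval, from -2.79 to -1.97, lay below those of F3H and F3'H, ended where that of CHI began and overlapped that of CHS, from -2.05 to -1.21. All 5 early enzymes kept an adjusted p under 0.05 in each of the 16 alternative fits.

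DFR and LDOX, which act after the branch point, varied more between replicates than the early enzymes, with standard errors of the log2 fold change of 0.38 and 0.41, against 0.12 to 0.18 for the early enzymes. DFR (AT5G42800, chr5:17164093-17166032) encodes dihydroflavonol 4-reductase, which competes with FLS1 for dihydroflavonols. It was measured at 1.21, 2.59 and 0.601 TPM in the SNP samples, against 6.06, 3.76 and 6.15 TPM in the mock samples. SNP replicate 2 and mock replicate 2 came nearest to each other. The log2 fold change was -1.67 ± 0.38 (SE, limma adjusted p = 0.0172), on 34 to 548 reads per sample. Without SNP replicate 1 the adjusted p was 0.0592 and without mock replicate 3 it was 0.0601, with log2 fold changes of -1.63 and -1.56.

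LDOX (AT4G22880, chr4:12004726-12006209) encodes leucoanthocyanidin dioxygenase, also called anthocyanidin synthase, which forms the coloured anthocyanidins. Its level was 2.61, 5.74 and 1.86 TPM in the SNP samples, against 18.0, 8.17 and 14.6 TPM in the mock samples. The same pair of samples, SNP replicate 2 and mock replicate 2, lay nearest to each other. The mean fell to 3.40 ± 2.06 TPM in SNP-treated apices, against 13.6 ± 5.0 TPM in mock-treated apices (SD, n = 3 each), with a log2 fold change of -1.91 ± 0.41 (SE, limma adjusted p = 0.0142). Without SNP replicate 1 the adjusted p was 0.0540 and without mock replicate 3 it was 0.0508, with log2 fold changes of -1.81 and -1.82.

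UGT78D2 (AT5G17050, chr5:5607788-5609589) encodes a glucosyltransferase that adds glucose to the 3-O position of flavonols and anthocyanidins, and it serves both branches. It was measured at 24.3, 29.2 and 23.9 TPM in the SNP samples, against 39.5, 32.7 and 35.6 TPM in the mock samples. The groups did not overlap, but the highest SNP and the lowest mock value were close. UGT78D2 fell to 71.8% of the mock mean, with a log2 fold change of -0.47 ± 0.12 (SE, limma adjusted p = 0.0233), short of a fold change of 1.5. Its 95% interval, from -0.75 to -0.20, lay above those of CHS, CHI, F3H, FLS1, DFR and LDOX and overlapped that of F3'H. The interval of DFR ended close by, at -0.77. The adjusted p was 0.0952 without SNP replicate 1, 0.102 without SNP replicate 3 and 0.0614 without mock replicate 3, at log2 fold changes of -0.43, -0.42 and -0.48.

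PAP1 (AT1G56650, chr1:21233555-21235292), also known as MYB75, encodes the R2R3-MYB activator of anthocyanin genes. Its level was 2.36, 2.49 and 2.08 TPM in the SNP samples, against 4.77, 4.05 and 4.20 TPM in the mock samples, on 83 to 273 reads. The log2 fold change was -0.78 ± 0.13 (SE, limma adjusted p = 0.00543), and the call held in all 16 alternative fits. TT8 (AT4G09820, chr4:6181881-6186523), the bHLH partner of PAP1, was the lowest of the 10 genes, at 0.399, 0.515 and 0.375 TPM in the SNP samples, against 0.560, 0.899 and 0.706 TPM in the mock samples. Only 28 to 87 reads lay behind each value of TT8. Its log2 fold change of -0.39 ± 0.17 (SE, limma adjusted p = 0.125) did not pass the test in any fit, and its 95% interval ran from -0.78 to 0.01. At this level the added 0.5 TPM shrinks the fold change, and with 0.1 TPM added it was -0.62.

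**Figure D2:**
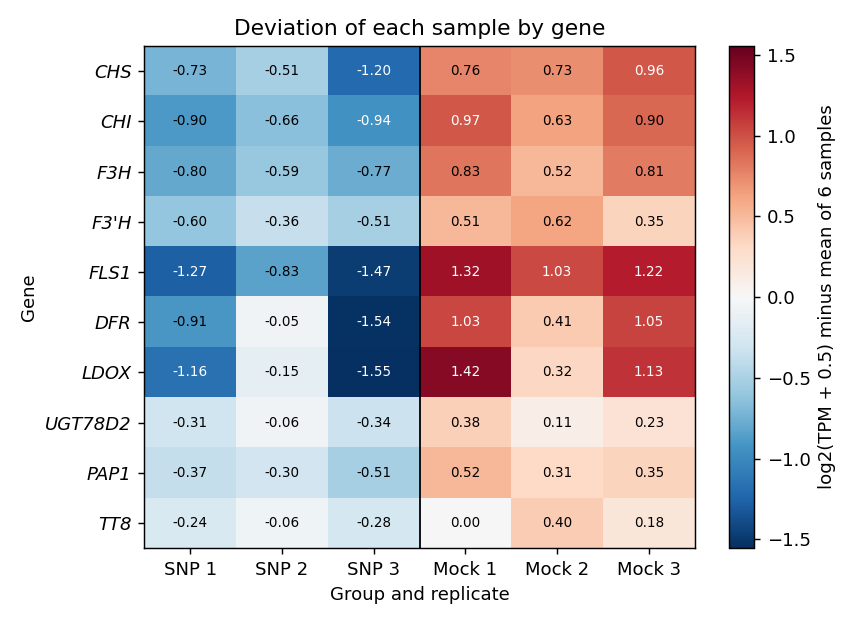
Difference of log2(TPM + 0.5) in each sample from the mean of the 6 samples, for the 10 genes in rows and the samples in columns (SNP left, mock right of the line), with red above and blue below the mean. SNP replicate 2 has the palest column of the SNP samples, at -0.05 for DFR and -0.15 for LDOX, while SNP replicate 3 reaches -1.54 and -1.55.

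For single genes a two-sided exact permutation test gave p = 0.1 for each of the 10, which is the smallest p that 3 samples against 3 allow.

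The wider pathway was followed with a list of 57 further genes, of which 54 were in the table and 47 had a mean of at least 0.5 TPM and were tested. Of these, 22 were lower, 9 were higher and 16 did not pass the test, with a median log2 fold change of -0.38. Across all tested genes 13.0% were called lower and 16.6% higher. Of the 31 called genes, 20 kept the call in every alternative fit that tested them.

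**Figure D3:**
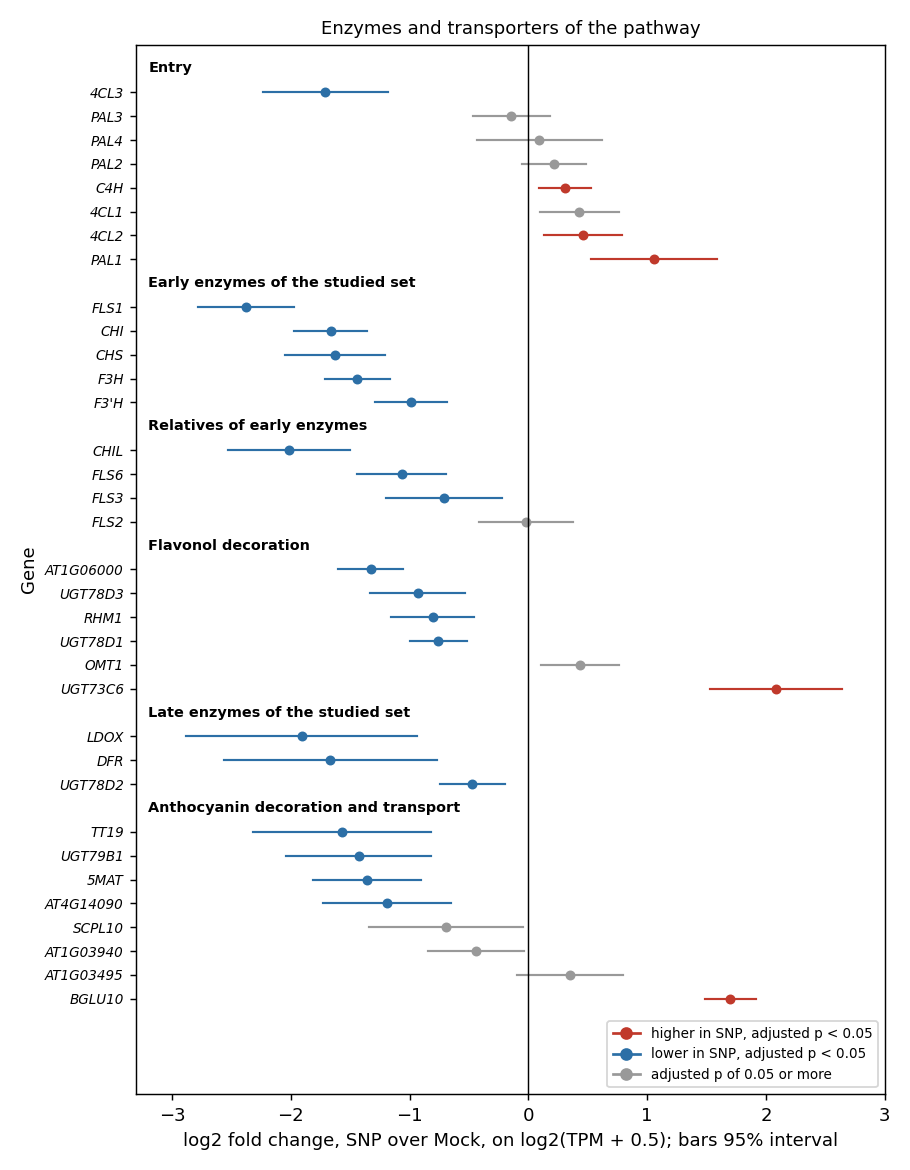
Log2 fold changes of SNP over mock on log2(TPM + 0.5), with 95% intervals from limma, for the tested enzymes and transporters grouped by step (red, higher; blue, lower; grey, adjusted p of 0.05 or more). The 8 enzymes of the set lie left of 0, while PAL1 (1.06), BGLU10 (1.70) and UGT73C6 (2.08) lie to the right.

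Of the 8 genes of the steps before chalcone synthase, 1 was lower and 3 were higher, against 13.0% and 16.6% of all tested genes. Their median log2 fold change was 0.26. PAL1, a phenylalanine ammonia-lyase at the start of phenylpropanoid synthesis, was measured at 40.4, 44.2 and 68.7 TPM in the SNP samples, against 21.3, 21.1 and 29.3 TPM in the mock samples, a log2 fold change of 1.06 ± 0.22 (SE, limma adjusted p = 0.0134). C4H (0.31) and 4CL2 (0.46) were also called higher. The calls of both were lost with median-of-ratios scaling, with 75th percentile scaling and with the trend along exon length removed, that of C4H without a variance trend and that of 4CL2 without the filter on low values. The call of C4H was also lost in each fit without 1 replicate except that without mock replicate 1 (adjusted p from 0.0755 to 0.179), and that of 4CL2 without SNP replicate 1, SNP replicate 3, mock replicate 2 or mock replicate 3 (0.0866 to 0.160). PAL2, PAL3, PAL4 and 4CL1 had log2 fold changes of 0.21, -0.15, 0.09 and 0.43 and did not pass the test. The lower gene was 4CL3, the 4-coumarate:CoA ligase linked in Arabidopsis to flavonoid synthesis, at 2.49, 3.61 and 2.40 TPM in the SNP samples, against 8.78, 8.82 and 13.9 TPM in the mock samples. It had a log2 fold change of -1.71 ± 0.22 (SE, limma adjusted p = 0.0023).

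CHIL, a chalcone isomerase-like protein that aids chalcone synthase without being an isomerase, was lower too. It was measured at 10.9, 17.2 and 10.7 TPM in the SNP samples, against 62.2, 42.5 and 55.2 TPM in the mock samples, a log2 fold change of -2.02 ± 0.22 (SE, limma adjusted p = 0.00106). Among the relatives of FLS1, FLS6 was lower (-1.07), at 5.14, 4.53 and 3.38 TPM in the SNP samples, against 9.87, 9.77 and 8.99 TPM in the mock samples. FLS3 was lower (-0.71) and FLS2 had a log2 fold change of -0.02. The call of FLS3, on 19 to 121 reads, was lost in each fit without 1 replicate except that without mock replicate 2 (adjusted p from 0.0606 to 0.114). FLS5 was below the filter at 0 to 4 reads per sample. FLS1 was expressed above FLS2, FLS3 and FLS6 in each sample. How reads shared between such related genes were counted is not given in the sources used here.

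In flavonol decoration 4 of 6 genes were lower and 1 was higher, against 13.0% and 16.6% of all tested genes. The median log2 fold change was -0.78. AT1G06000, annotated as a flavonol 7-O-rhamnosyltransferase, was measured at 60.2, 60.1 and 53.3 TPM in the SNP samples, against 154, 125 and 161 TPM in the mock samples, a log2 fold change of -1.33 ± 0.12 (SE, limma adjusted p = 0.000473). UGT78D1, a flavonol 3-O-rhamnosyltransferase and a relative of UGT78D2, fell to 78.3 ± 1.93 TPM in SNP-treated apices, against 133 ± 15.1 TPM in mock-treated apices (SD, n = 3 each). UGT78D3, also of that family, was lower at -0.93, with 0.726, 0.702 and 0.532 TPM in the SNP samples, against 1.81, 1.99 and 1.34 TPM in the mock samples, on 32 to 155 reads. RHM1, which makes UDP-rhamnose, was lower at -0.81. UGT73C6, a flavonol 7-O-glucosyltransferase, went the other way and was measured at 8.59, 15.0 and 13.4 TPM in the SNP samples, against 2.08, 2.24 and 3.16 TPM in the mock samples, a log2 fold change of 2.08 ± 0.24 (SE, limma adjusted p = 0.00129). OMT1, a methyltransferase of lignin and flavonol synthesis, had a log2 fold change of 0.43 (limma adjusted p = 0.0521).

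In anthocyanin decoration and transport 4 of 8 genes were lower and 1 was higher, against 13.0% and 16.6% of all tested genes. The median log2 fold change was -0.94. The 4 lower genes were TT19 (-1.57), a glutathione transferase needed for anthocyanin accumulation, UGT79B1 (-1.43), which adds xylose, 5MAT (-1.36), an anthocyanin malonyltransferase, and AT4G14090 (-1.19), annotated as an anthocyanidin 5-O-glucosyltransferase. TT19 was measured at 3.48, 5.75 and 2.28 TPM in the SNP samples, against 15.6, 9.24 and 11.0 TPM in the mock samples. UGT79B1 was measured at 1.11, 2.06 and 0.992 TPM in the SNP samples, against 5.23, 3.33 and 5.0 TPM in the mock samples. In none of the 4 did the groups overlap, and 22.0% of all tested genes had all SNP values below all mock values. 5MAT was measured at 1.88, 1.99 and 1.37 TPM in the SNP samples, against 6.09, 4.05 and 5.73 TPM in the mock samples. AT4G14090 was measured at 2.12, 2.87 and 1.83 TPM in the SNP samples, against 7.13, 4.19 and 6.33 TPM in the mock samples. SNP replicate 2 was the highest SNP sample and mock replicate 2 the lowest mock sample in all 4 of these genes. The first held for all 10 genes of the set and the second for 8 of them, against 47.3% and 18.7% of all tested genes. BGLU10, a beta-glucosidase family member with a possible role in anthocyanin glucosylation, rose, at 66.9, 67.1 and 65.0 TPM in the SNP samples, against 18.2, 21.0 and 21.2 TPM in the mock samples, a log2 fold change of 1.70 ± 0.09 (SE, limma adjusted p = 6.94e-05). The acyltransferase family genes SCPL10, AT1G03940 and AT1G03495 had log2 fold changes of -0.69, -0.44 and 0.35 and did not pass the test. Of the 7 genes of the proanthocyanidin branch, known from the seed coat, AHA10 was the 1 tested, at a log2 fold change of -0.35 (limma adjusted p = 0.313). BAN, TT2, TT10, TT12 and TT16 were at no more than 9 reads in any sample.

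**Figure D4:**
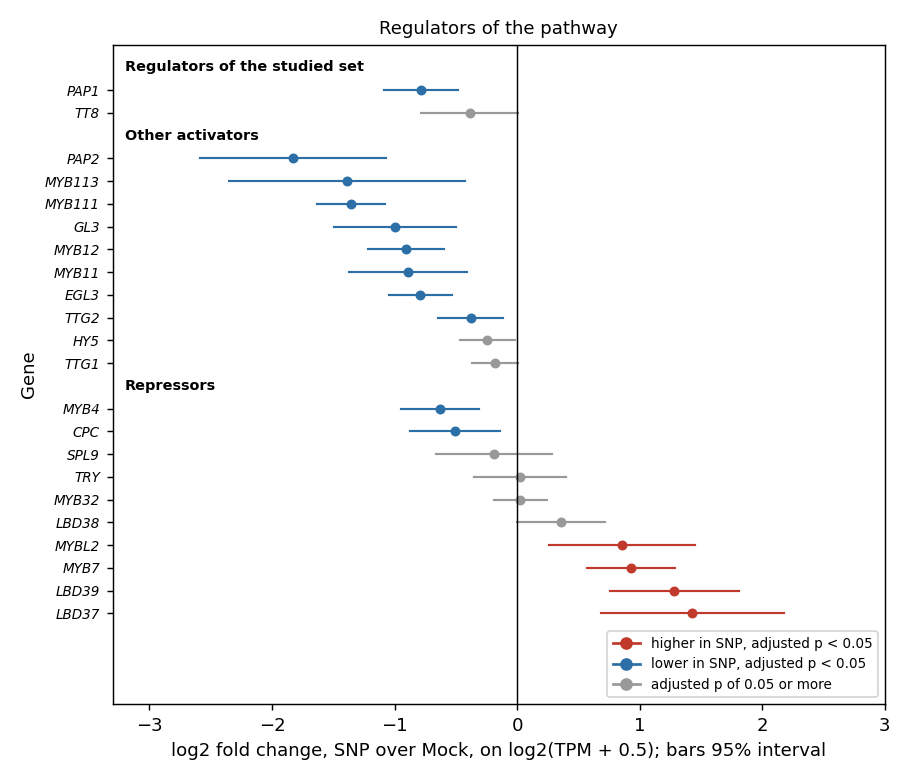
Log2 fold changes of SNP over mock on log2(TPM + 0.5), with 95% intervals from limma, for PAP1, TT8 and the tested activators and repressors of the pathway (red, higher; blue, lower; grey, adjusted p of 0.05 or more). The activators lie between -1.83 and -0.18, and the repressors between -0.63 and 1.43.

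Among the other activators 8 of 10 tested genes were lower and 0 were higher, against 13.0% and 16.6% of all tested genes. Their median log2 fold change was -0.90. The flavonol activators MYB111, MYB12 and MYB11 were all lower. MYB111 was measured at 4.90, 5.49 and 5.37 TPM in the SNP samples, against 15.8, 13.9 and 13.0 TPM in the mock samples, a log2 fold change of -1.35 ± 0.12 (SE, limma adjusted p = 0.000445). MYB12 was measured at 6.50, 5.52 and 5.11 TPM in the SNP samples, against 10.5, 12.3 and 10.6 TPM in the mock samples, a log2 fold change of -0.91 ± 0.13 (SE, limma adjusted p = 0.00328). MYB11 was lower at -0.89, on 28 to 141 reads. The call of MYB11 was lost without SNP replicate 1, SNP replicate 3 or mock replicate 2, at adjusted p-values from 0.0521 to 0.0653.

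PAP2 and MYB113, relatives of PAP1, were also lower. PAP2 was measured at 0.665, 1.73 and 0.777 TPM in the SNP samples, against 7.10, 4.22 and 3.64 TPM in the mock samples, a log2 fold change of -1.83 ± 0.32 (SE, limma adjusted p = 0.00675). MYB113 was lower at -1.39, with 0.283, 0.283 and 0.484 TPM in the SNP samples, against 1.59, 0.747 and 3.64 TPM in the mock samples, where mock replicate 3 stood highest. Its call was lost in each fit without 1 replicate except that without mock replicate 2 (adjusted p from 0.0526 to 0.116), without the filter on low values and with 1 TPM added. MYB114 was below the filter, with at most 37 reads in a sample. PAP1, PAP2, MYB113 and MYB114 are similar in sequence, and how reads shared between them were counted is not given in the sources used here.

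Of the partners of the MYB factors, the bHLH genes GL3 and EGL3 were lower at -1.0 and -0.79, and the WD-repeat gene TTG1 had a log2 fold change of -0.18 (limma adjusted p = 0.136). EGL3 was the most abundant of the bHLH genes, at 18.5 ± 0.717 TPM in SNP-treated apices, against 32.5 ± 3.90 TPM in mock-treated apices (SD, n = 3 each), while TT8 stayed under 1 TPM in every sample. GL3 was measured at 1.47, 2.07 and 1.86 TPM in the SNP samples, against 4.37, 2.97 and 5.11 TPM in the mock samples. The call of GL3 was lost without SNP replicate 1, at an adjusted p of 0.0535. TTG1 passed only with 75th percentile scaling, at an adjusted p of 0.0426. GL3, EGL3 and TTG1 also act in trichomes. Of the trichome markers, GL1 was lower at -0.83 and GL2 had a log2 fold change of 0.38 (limma adjusted p = 0.32), with a sum of the pair of 17.9 to 26.3 TPM in SNP and 13.4 to 23.7 TPM in mock samples, and the part of trichomes was not tested. TTG2, which acts after TTG1, was called lower at -0.38, a call lost in each fit without 1 replicate except that without mock replicate 1 (adjusted p from 0.0726 to 0.160) and without the filter on low values. HY5, a bZIP activator of light-responsive genes such as CHS, had a log2 fold change of -0.24 (limma adjusted p = 0.0948). Like TTG1, HY5 passed only with 75th percentile scaling, at an adjusted p of 0.0470.

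Of the 10 repressors 4 were higher and 2 were lower, against 16.6% higher and 13.0% lower of all tested genes. Their median log2 fold change was 0.19. LBD37 and LBD39, nitrogen-responsive repressors of anthocyanin genes, rose. LBD37 was measured at 62.6, 67.8 and 79.5 TPM in the SNP samples, against 14.9, 38.5 and 28.8 TPM in the mock samples, a log2 fold change of 1.43 ± 0.32 (SE, limma adjusted p = 0.0155). Its adjusted p was 0.0606 without SNP replicate 3. LBD39 was measured at 36.4, 44.1 and 41.5 TPM in the SNP samples, against 14.6, 23.7 and 12.7 TPM in the mock samples, a log2 fold change of 1.28 ± 0.22 (SE, limma adjusted p = 0.00662). LBD38 had a log2 fold change of 0.36 and did not pass the test.

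MYB7, a repressor of flavonol synthesis, was higher at 0.93, with 6.67, 5.33 and 7.74 TPM in the SNP samples, against 3.20, 3.28 and 3.05 TPM in the mock samples, and was called in all 16 alternative fits. MYBL2, a repressor that competes with the MYB activators for bHLH partners, was called higher at 0.86, but this was lost in each fit without 1 replicate except that without mock replicate 2 (adjusted p from 0.0627 to 0.114) and without the filter on low values. MYB4, a repressor of phenylpropanoid genes, was lower at -0.63, a call lost without SNP replicate 2 (0.0524) or SNP replicate 3 (0.0596). CPC, a small MYB protein without an activation domain, was called lower at -0.50, which was lost without any 1 of the SNP replicates or without mock replicate 2 (adjusted p from 0.0948 to 0.149), without the filter on low values, with median-of-ratios scaling and with both other variance settings. TRY, MYB32 and SPL9 had log2 fold changes of 0.02, 0.03 and -0.19 and did not pass the test. SPL9 passed only without mock replicate 1, at -0.43 and an adjusted p of 0.00443.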

How the data were processed

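Libraries were poly(A)-selected and strand-specific, and per the labels the reads were mapped by STAR against TAIR10. The authors deposited TPM values of 24340 genes for each replicate. The counting tool, gene lengths and filter are not given in the sources used here. The authors also deposited the log2 fold change, p-value and adjusted p-value of their own comparison, which were not used. Multiplied by merged exon length in the RefSeq TAIR10.1 annotation (24184 genes), 99.4% of the TPM values were whole multiples of 1 step per sample, to within 0.05, and reads were taken from these steps. They were not used in any test.

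Genes that averaged 0.5 TPM or more were tested with limma 3.58.1 (R 4.3.3) on log2(TPM + 0.5), with a mean-variance trend, all 6 samples and no block, and Benjamini-Hochberg adjustment. Fold changes on this scale understate those of low genes. The step was checked on simulated data. Tables and figures were made with Python 3.11.15, pandas 2.3.3 and matplotlib 3.10.9. Sequences and positions came from the TAIR10.1 genome by gene identifier, and no protein sequences were used here.

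The members and lists were chosen with earlier results of these data known. Named were the 10 genes and, of the wider pathway list, the genes past an adjusted p of 0.05, the relatives of the 10 genes and the MYB, bHLH and WD-repeat regulators. Other genes of the list are given by their fold changes. Alternatives were added values of 0.1 and 1 TPM, a filter at a mean of 1 TPM or none, 2 scalings, 2 variance settings, a replicate block, removal of the trend along exon length, each replicate left out, and 2 other call limits. Replicates carry the same numbers in both groups, but the deviations of same-numbered samples had correlations from -0.09 to 0.30, so the numbers were not taken as pairs. The methods call the replicates biological.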

Additional observations from a re-analysis of the deposited data

How the results depend on the processing

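All 10 genes of the set had a negative log2 fold change in every alternative fit that tested them. TT8 was not tested with the filter at a mean of 1 TPM. Of 159 comparisons of a gene of the set with an alternative, 152 kept their side of the limit and 7 lost the call, all in fits without 1 replicate (DFR, LDOX and UGT78D2), and 6 genes (CHS, CHI, F3H, F3'H, FLS1 and PAP1) were called in all 16 fits. The number of the 10 called lower was 9 in each alternative with all 6 samples. It was 8 by the study's criterion (its limits on the limma fit) and 6 with a fold change of at least 2. It ranged from 6 to 9 without 1 replicate. With the replicate block 9 of the set, 30 wider pathway genes and 5490 of all genes were called, and 1 of the 3 SNP samples correlated best with the mock sample of its own number. Over all genes, 5619 were called, against 3205 by the study's criterion, 1483 with a fold change of at least 2, and from 2883 to 7924 without 1 replicate, with the lowest count without SNP replicate 3 and the highest without mock replicate 1. Of the wider pathway, 31 genes were called, against 16 with a fold change of at least 2 and from 21 to 31 without 1 replicate. In these genes, 59 of 751 comparisons lost a call and 9 gained one, including the block, which lost C4H, 4CL2 and TTG2 and gained 4CL1 and OMT1. OMT1 and SCPL10 gained a call with the trend along exon length removed, and TTG1 and HY5 with 75th percentile scaling. Without mock replicate 1, OMT1, AHA10 and SPL9 gained one. The stricter limits leave fewer calls by construction, and the cause of the differences between replicates left out was not tested. Depth limits TT8, DFR and PAP1 most, at 28, 34 and 83 reads in their lowest samples.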

Other observations

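SNP replicate 2 was the highest SNP sample for all 10 genes of the set, and mock replicate 2 the lowest mock sample for 8 of the 10. Over all tested genes these shares were 47.3% and 18.7%. Genes are not independent replicates, so these shares describe the samples only.

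A set of 3 ratios of TPM between genes within a sample was computed after the values had been seen. The log2 ratio of UGT78D2 to CHS was -1.80, -1.76 and -1.35 in the SNP samples, against -2.59, -2.84 and -2.95 in the mock samples, a difference of 1.16. The log2 ratio of UGT78D2 to UGT78D1 was -1.70, -1.38 and -1.74 in the SNP samples, against -1.83, -1.82 and -2.01 in the mock samples, a difference of 0.28. Both gave p = 0.1 in a two-sided exact permutation test, the smallest p possible with 3 samples against 3, and 0.15 after adjustment over the 3 ratios. The log2 ratio of FLS1 to DFR was 4.16, 3.51 and 4.96 in the SNP samples, against 4.45, 4.85 and 4.33 in the mock samples. These groups overlapped, and SNP replicate 3, where DFR was lowest, had the highest ratio of all 6 samples (difference -0.33, exact permutation p = 0.5, adjusted 0.5). With 0.1 TPM added to both genes the difference was -0.43, and with 0.5 TPM added it was -0.71 and the groups no longer overlapped, so this ratio depends on the added value.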
